A study of Mus musculus with 12 samples.

Results

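The 1000 positions between 2000 and 1000 bp upstream of the transcription start site (TSS) were taken from each of 12 profiles of 4001 positions (the position at 1000 bp itself is left out). They were chosen by position alone. Bins of 100 positions are named below by their outer edge and the outer edge of the next bin. The profiles are of acetylation of histone H4 at lysine 12 (H4K12ac) in mouse brain chromatin. On the deposited scale, this distal stretch carried H4K12ac signal above input in all 6 pairs of libraries. The excess grew with every bin of 100 positions towards the promoter, and it was larger in non-neuronal than in neuronal nuclei in each of 3 conditions. Over input, the neuronal age difference and the SAHA differences of both populations were nearer 0 here than around the TSS, while the non-neuronal age difference was of like size. For H4K12ac alone, without division by input, all 4 of these differences were nearer 0 here than around the TSS. The inputs also differed less here, by a median log2 of 0.019 over the 15 pairs of inputs, against 0.11 around the TSS. Set against input pairs of the same window, both non-neuronal differences in H4K12ac alone exceeded more of them here than around the TSS. Over input the non-neuronal age difference also did, at 12 against 3 of 15 pairs. The non-neuronal SAHA difference over input did not, at 2 against 7. With 1 library per group these are descriptions.

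The nuclei came from wild-type C57B/6JRj mice and were labelled as neuronal or non-neuronal. Column names in the files mention CA1, one of the hippocampal subfields, and call the non-neuronal population glia. The 3 conditions were mice of 3 months on vehicle (young), of 20 months on vehicle (aged vehicle) and of 20 months on SAHA (aged SAHA), values being given in this order. SAHA, or vorinostat, inhibits histone deacetylases. Vehicle was 18 g cyclodextrin per litre of water. SAHA was added to it at 0.67 g per litre, and the series title gives 4 weeks of oral treatment. Each of the 6 combinations had 1 chromatin immunoprecipitation (ChIP) library for H4K12ac and 1 library of its input, the sonicated chromatin before immunoprecipitation. No animals of other genotypes were analysed here. The sources used here do not say how many animals gave each library. A profile averaged over many TSS holds no genes, so the population labels could not be set against marker genes and no gene can be named.

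Histone acetyltransferases place the acetyl group on H4 and histone deacetylases remove it. The mark is known from the nucleosomes around the TSS of active genes, which lie on either side of a region kept open for the transcription machinery. Farther upstream, outside the core promoter, a profile averaged over many genes also takes in enhancers, neighbouring genes and chromatin that is not acetylated. A ChIP library also holds reads that were not enriched by the antibody, and for this reason each level was set against its input.

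Values below are the deposited normalized signal multiplied by 1000. Levels over input take it that H4K12ac and input were scaled alike, which the sources used here do not state. A gradient taken as a ratio to input does not depend on this, but growth of the excess with input subtracted does. The smallest unit of signal, taken as 1 read, was 1.28e-08 to 2.74e-08 in the deposited scale over the 12 libraries. The counting error of a mean over the 1000 positions was 0.109% to 0.155% in the H4K12ac libraries and 0.118% to 0.160% in the inputs. It covers counting only, not the spread between animals or preparations. With 1 library per group, the 6 pairs stand for 6 different groups and are not replicates of one.

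The first question was how far H4K12ac at this distance exceeded input. The mean H4K12ac signal of neuronal nuclei was 5.32 in the young, 5.26 in the aged vehicle and 5.22 in the aged SAHA library. That of non-neuronal nuclei was 6.20, 5.97 and 6.13. The inputs lay at 4.00, 4.06 and 4.01 in neuronal and at 4.08, 4.02 and 4.12 in non-neuronal nuclei. All 6 H4K12ac libraries thus lay above all 6 inputs, and the H4K12ac signal exceeded its own input at 100% of the 1000 positions in each pair. That share was not worked out for the rest of the profile, so it does not set this stretch apart. Neighbouring positions share reads and are not separate observations.

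Divided by its own input, the neuronal signal was 1.33-fold in the young, 1.30-fold in the aged vehicle and 1.30-fold in the aged SAHA pair. The non-neuronal folds were 1.52, 1.49 and 1.49. On the log2 scale the ratio averaged 0.49 ± 0.11 (SD, n = 6 pairs) and lay above 0 in all of them. A two-sided exact permutation test by sign flips gave p = 0.03125 for these 6 pairs, the least they allow, and 0.05 after Benjamini-Hochberg adjustment over the 8 tests made, which is not below the threshold of 0.05. All tests of this kind below are two-sided as well. The SD spans both populations and all conditions.

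**Figure D1:**
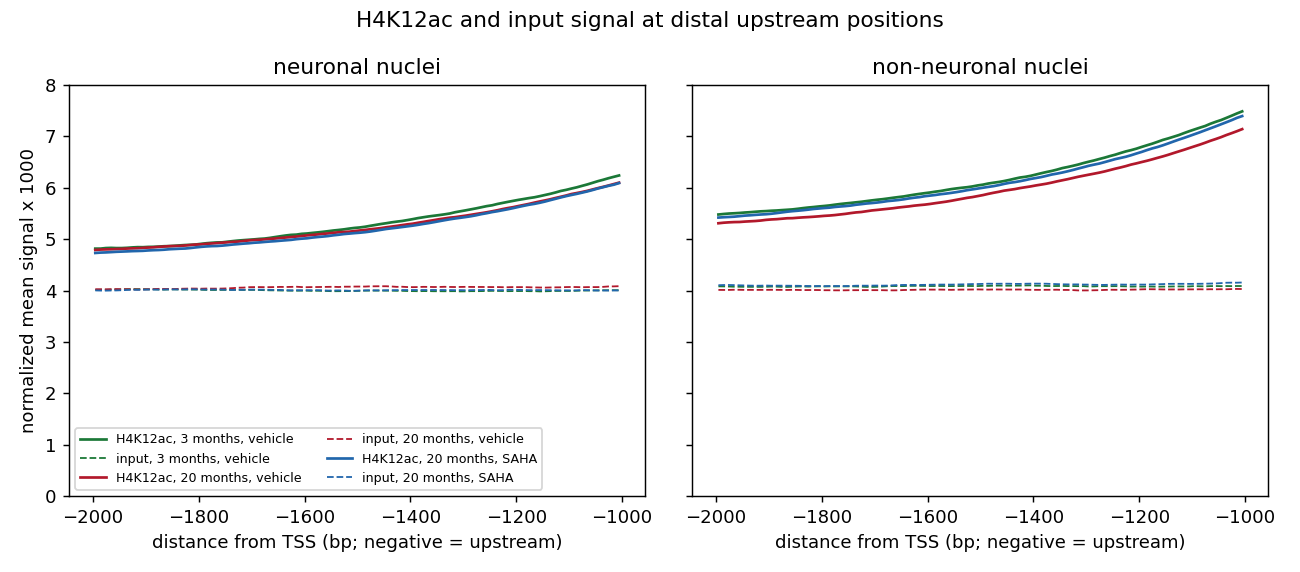
Normalized mean signal times 1000 (vertical axis) against distance from the TSS in bp (horizontal axis), in means of 10 positions, for neuronal nuclei (left) and non-neuronal nuclei (right). Solid lines are H4K12ac and dashed lines the inputs, 1 library each, coloured by condition; the H4K12ac lines climb towards the TSS while the inputs stay between 3.99 and 4.14 in every bin of 100 positions.

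The outermost and innermost ends of the stretch show how much of this was already present at its far edge. In the outermost bin, 2000 to 1900 bp upstream, the H4K12ac signal was 4.83, 4.81 and 4.75 in neuronal nuclei and 5.51, 5.34 and 5.45 in non-neuronal nuclei. This was 1.20-, 1.19- and 1.19-fold input in neuronal and 1.35-, 1.33- and 1.33-fold input in non-neuronal nuclei. On the deposited scale the profiles had therefore not come down to input where they end. In the innermost bin, 1100 to 1000 bp upstream, the folds had grown to 1.53, 1.47 and 1.49 in neuronal and 1.79, 1.73 and 1.74 in non-neuronal nuclei.

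The second question was the gradient towards the promoter. The H4K12ac signal gained 26.5%, 24.4% and 25.6% from the outermost to the innermost 100 positions in neuronal nuclei, and 32.4%, 30.5% and 32.4% in non-neuronal nuclei. The 95% counting intervals were narrow, the widest being 25.5% to 27.5% in young neuronal nuclei. Over the same distance the inputs changed by -0.478%, 1.17% and -0.0849% in neuronal and by 0.280%, 0.322% and 1.02% in non-neuronal nuclei. Relative to its own input, the gain was 0.36 ± 0.040 on the log2 scale (SD, n = 6 pairs) and positive in 6 of 6 (exact permutation by sign flips, p = 0.03125, adjusted 0.05).

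The rise was unbroken at this resolution. In each of the 6 H4K12ac libraries all 9 steps between neighbouring bins went up, whereas in the inputs 3 to 6 of 9 did. The lowest bin was the outermost one in 6 of 6 H4K12ac libraries, and the lowest single position lay between 2000 and 1993 bp upstream. The lowest input bins were scattered, from the outermost one to that at 1400 to 1300 bp upstream. The highest position of each H4K12ac library was the innermost of the 1000.

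The start of a sustained rise was judged against a level, the mean of each library's own outermost 100 positions. From 1933, 1926 and 1938 bp upstream in the non-neuronal libraries, every position up to the inner edge exceeded that level by more than 3 counting errors. In neuronal nuclei this held from 1856, 1925 and 1924 bp. All of these starts but that at 1856 bp lie inside the outermost 100 positions. The level thus contains the positions compared with it, and a signal rising across them passes their mean by construction. An early start is therefore no result separate from the rise itself. The young neuronal library was the last to depart. It also had the largest step of the H4K12ac libraries, and so the largest counting error. Whether that sets the later start was not tested. Among the inputs, 4 never met this criterion, and the aged vehicle neuronal and the SAHA non-neuronal ones met it only from 1028 and 1046 bp.

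The climb steepened inwards. The first step, into the bin at 1900 to 1800 bp, raised H4K12ac by 0.836% to 1.75% over the 6 libraries, at least 3.99 counting errors. The step into 1500 to 1400 bp was 2.14% to 3.27%, and the last step, into 1100 to 1000 bp, was 4.14% to 5.38%. Input steps stayed between -0.282% and 0.574%. The next 100 positions nearer the TSS, just outside the stretch, were a further 4.92% to 5.99% above the innermost one, so the boundary marks no break in the profile.

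The outer and inner 500 positions were then compared, each from its own first to its own last 100 positions. Relative to input, the neuronal libraries gained 7.66%, 5.14% and 6.72% over the outer 500 and 15.1%, 14.6% and 15.2% over the inner 500. The non-neuronal libraries gained 8.03%, 7.70% and 7.96% over the outer and 19.1%, 17.0% and 18.3% over the inner 500. The inner gain exceeded the outer one by a log2 of 0.12 ± 0.016 (SD, n = 6 pairs), in 6 of 6 (exact permutation by sign flips, p = 0.03125, adjusted 0.05).

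**Figure D2:**
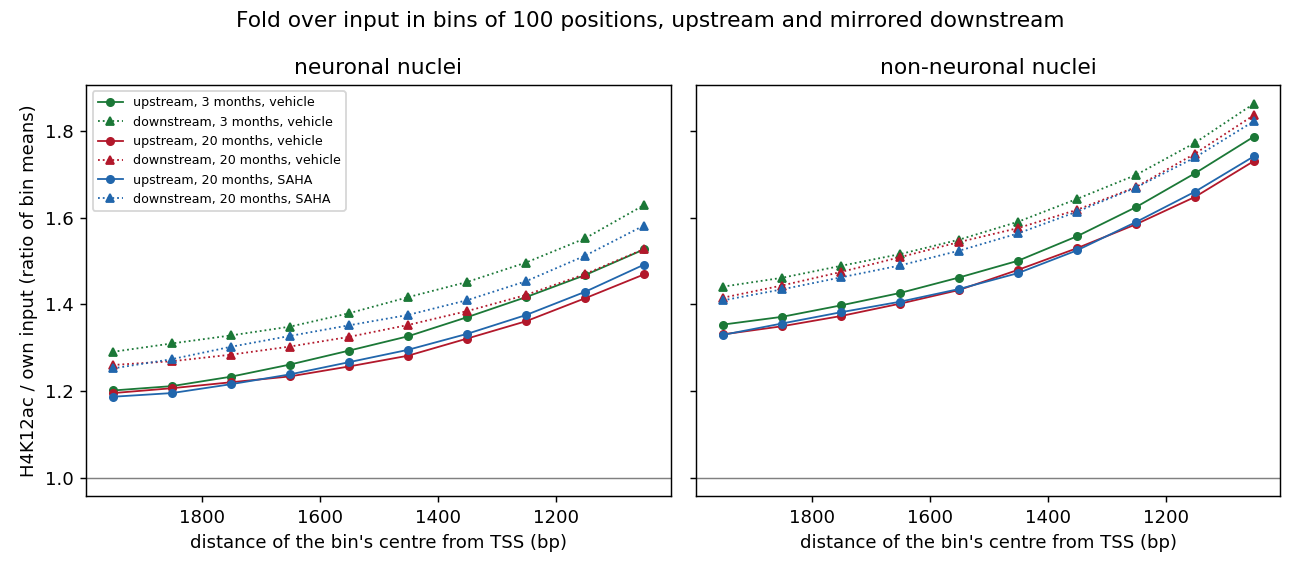
H4K12ac divided by own input (ratio of bin means, vertical axis) in bins of 100 positions against the distance of the bin's centre from the TSS in bp (horizontal axis, nearer the TSS to the right), for neuronal nuclei (left) and non-neuronal nuclei (right). Circles with solid lines are upstream bins, triangles with dotted lines the mirrored downstream bins, 1 pair of libraries each, and the grey line marks equality with input; downstream bins lie above upstream bins at the same distance.

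The third question was whether the populations differed. Neuronal nuclei had less H4K12ac signal at these positions in all 3 conditions, with a difference from non-neuronal nuclei of -14.1% in young, -11.8% in aged vehicle and -14.8% in aged SAHA mice. After division by own input, the populations differed by a log2 of -0.19, -0.20 and -0.19. The mean was -0.19 ± 0.0035 (SD, n = 3 conditions), below 0 in 3 of 3 (exact permutation by sign flips, p = 0.25, the least that 3 pairs allow, adjusted 0.25). This SD is no larger than the counting error of each single difference, 0.0036 to 0.0041, and is no measure of precision. The SD of the log2 difference was 0.026 for H4K12ac alone and 0.029 for the inputs alone. The 3 neuronal pairs, at a log2 over input of 0.37 to 0.41, did not overlap the 3 non-neuronal ones, at 0.57 to 0.60. Within a population the conditions spanned only 0.038 in neuronal and 0.031 in non-neuronal nuclei. Whether the population difference lies in the mark or in the share of unenriched reads in each immunoprecipitate cannot be told apart from profiles of this kind.

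The inputs of the 2 populations differed little here, by a log2 of -0.029, 0.016 and -0.037. Within the stretch, the difference between populations was present in each bin and widened inwards. Divided by input it was -0.16 on average over the 3 conditions at 2000 to 1900 bp, -0.18 at 1600 to 1500 bp and -0.23 at 1100 to 1000 bp. Between 1000 and 2000 bp downstream the populations were also apart, at a log2 over input of 0.44 to 0.51 (neuronal) and 0.65 to 0.68 (non-neuronal). Within 500 bp of the TSS their ranges overlapped. Neuronal values there were 1.52, 1.16 and 1.44, and non-neuronal ones 1.59, 1.57 and 1.47. The gap was thus narrower around the TSS than here in young and aged SAHA mice, and wider in aged vehicle mice.

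The direction of the difference in gradient depended on how input was taken into account. As a ratio to input, the gain from the outermost to the innermost 100 positions was 27.1%, 22.9% and 25.7% in neuronal nuclei and 32.1%, 30.1% and 31.0% in non-neuronal nuclei. The log2 difference was -0.066 ± 0.014 (SD, n = 3 conditions), below 0 in 3 of 3 (exact permutation by sign flips, p = 0.25, adjusted 0.25). With input subtracted instead, the excess grew 2.61-, 2.43- and 2.63-fold in neuronal nuclei and 2.24-, 2.22- and 2.27-fold in non-neuronal nuclei, so the order of the populations was reversed. The neuronal excess started from a smaller value, 0.808, 0.785 and 0.748 at the outermost 100 positions, against 1.44, 1.33 and 1.35 in non-neuronal nuclei. Growth of the excess, and so the reversed order, takes it that H4K12ac and input were scaled alike. The gain as a ratio to input does not.

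**Figure D3:**
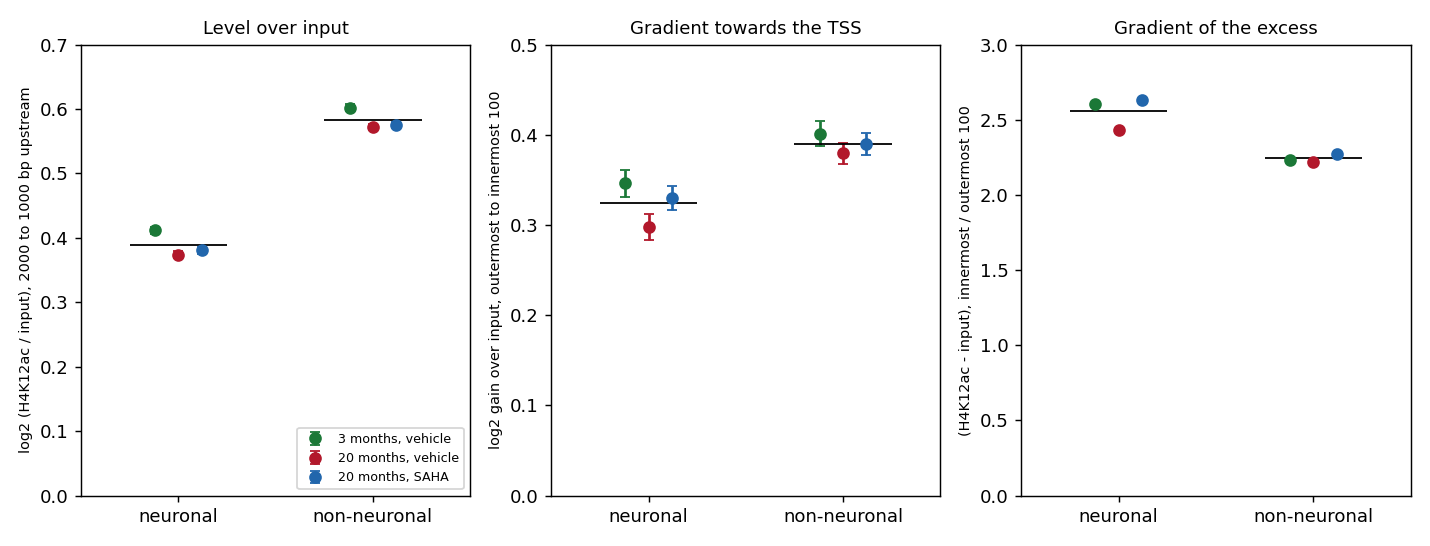
Level over input (left, log2), gain over input from the outermost to the innermost 100 positions (middle, log2) and growth of the input-subtracted excess over the same distance (right, ratio) for each population (horizontal axis). Points are single pairs of libraries coloured by condition, bars are 95% counting intervals (not drawn on the right), and black lines are means of the 3 conditions. The populations do not overlap in any panel, and their order on the right is opposite to that in the middle. The left and right panels take it that H4K12ac and input were scaled alike.

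The stretch was next set against the 1000 positions between 1000 and 2000 bp downstream, its mirror image in the gene body. Upstream positions were lower over input than downstream ones in every pair. The downstream folds over input were 1.42, 1.36 and 1.38 in neuronal and 1.60, 1.58 and 1.57 in non-neuronal nuclei. The log2 difference, upstream minus downstream, was -0.084 ± 0.0094 (SD, n = 6 pairs), below 0 in 6 of 6 (exact permutation by sign flips, p = 0.03125, adjusted 0.05). For the H4K12ac libraries alone it was -0.11 ± 0.0048. The inputs were themselves lower upstream, by a mean log2 of -0.029.

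The gradients of the 2 sides were compared in the same way. Over input, the downstream signal gained 26.3%, 21.2% and 26.4% towards the TSS in neuronal and 29.3%, 29.8% and 29.4% in non-neuronal nuclei. Upstream exceeded downstream by a log2 of 0.012 ± 0.013 (SD, n = 6 pairs), in 5 of 6 pairs, which did not pass the threshold of 0.05 (exact permutation by sign flips, p = 0.09375, adjusted 0.125). For the H4K12ac libraries alone the difference had the opposite sign, with a mean of -0.0080, below 0 in 6 of 6 pairs (exact permutation by sign flips, unadjusted p = 0.03125).

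Around the TSS, in the mean within 500 bp on either side, the H4K12ac signal was 2.24- to 3.02-fold input. Distal positions were lower over input by a mean log2 of -0.97 ± 0.12 (SD, n = 6 pairs), in 6 of 6 (exact permutation by sign flips, p = 0.03125, adjusted 0.05). With input subtracted, the distal excess was 17.1%, 21.3% and 16.8% of the excess around the TSS in neuronal nuclei. In non-neuronal nuclei it was 23.4%, 24.1% and 24.4%. Here the aged vehicle neuronal library stood nearer to the non-neuronal ones than the other neuronal libraries did. Around the TSS its excess was 5.63, against 7.73 in the young and 7.20 in the aged SAHA library, while at the distal positions it was 1.20, against 1.32 and 1.21.

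The age comparison asked whether the distal signal differed between mice of 20 and 3 months given vehicle. The aged neuronal H4K12ac signal was -1.18% from the young one (log2 -0.017, 95% counting interval -0.023 to -0.012). Over input, the log2 difference was -0.038 (95% counting interval -0.046 to -0.030), and the neuronal inputs differed by 0.021 in the opposite direction. Within 500 bp of the TSS the same comparison gave -0.36 over input and -0.22 for H4K12ac alone. The neuronal difference was close to 0 at the far edge and larger nearer the TSS. For H4K12ac alone it was -0.415% at 2000 to 1900 bp, -0.896% at 1600 to 1500 bp and -2.10% at 1100 to 1000 bp.

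Among non-neuronal libraries the aged vehicle one was lower along the whole stretch. The H4K12ac signal differed by -3.75% (log2 -0.055, 95% counting interval -0.060 to -0.050). Its bins ranged from -4.58% to -3.15%, so the difference was already present at the far edge. The non-neuronal inputs differed in the same direction, by a log2 of -0.024, which left -0.031 over input (95% counting interval -0.038 to -0.024). Around the TSS the H4K12ac signal alone differed by -9.52% (log2 -0.14), more than at the distal positions. The inputs there differed by a log2 of -0.12, which left -0.026 over input, about as large as at the distal positions. The aged signal was lower than the young one in 10 of 10 bins in both populations, with and without division by input.

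As a scale without replicates, the 15 pairs of inputs differed at these positions by a log2 of 0.0020 to 0.040, with a median of 0.019. The age difference in H4K12ac alone exceeded that of 6 of the 15 input pairs in neuronal and of 15 in non-neuronal nuclei. Over input it exceeded that of 14 and 12. A difference over input joins an H4K12ac and an input difference, so it does not share the scale of a difference between inputs alone. The inputs of each comparison are also among the 15 pairs. Within 500 bp of the TSS the inputs differed more, by a log2 of 0.010 to 0.18, with a median of 0.11. There the age difference in H4K12ac alone exceeded that of 15 input pairs in neuronal and 11 in non-neuronal nuclei. Over input these counts were 15 and 3. The gradient over input was lower at 20 months by a log2 of -0.048 in neuronal (95% counting interval -0.069 to -0.028) and -0.022 in non-neuronal nuclei (-0.041 to -0.0034). These differences have no replicate error and no test.

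The effect of SAHA was examined at 20 months, against vehicle. The log2 difference in level over input was 0.0071 in neuronal nuclei (95% counting interval -0.00060 to 0.015) and 0.0038 in non-neuronal nuclei (-0.0029 to 0.010), so both intervals included 0. Around the TSS the corresponding values over input were 0.28 and -0.10. For H4K12ac alone they were 0.16 and 0.082, since the inputs there differed by -0.12 in neuronal and 0.18 in non-neuronal nuclei. Division by input thus turned the sign of the second value. The intervals cover counting error only and do not show that SAHA left these positions unaltered.

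For H4K12ac alone the 2 populations went opposite ways. The neuronal SAHA library differed from vehicle by -0.744% and was lower in 10 of 10 bins, most at 1900 to 1800 bp (-1.20%) and least at 1100 to 1000 bp (-0.186%). The non-neuronal SAHA library differed by 2.75% and was higher in 10 of 10 bins, by 2.10% to 3.55%. The inputs differed in the same directions, by -1.23% (neuronal) and 2.47% (non-neuronal). The neuronal H4K12ac difference exceeded that of 4 of the 15 input pairs and the non-neuronal one that of 14. Within 500 bp of the TSS these counts were 13 and 6. Over input, the counts for neuronal and non-neuronal nuclei were 3 and 2 at the distal positions and 15 and 7 within 500 bp.

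The gradient over input was higher with SAHA by a log2 of 0.032 in neuronal nuclei (95% counting interval 0.012 to 0.052). In non-neuronal nuclei it was higher by 0.010, with an interval of -0.0068 to 0.027 that included 0. Set against the young libraries, the aged SAHA libraries had a lower level over input, by a log2 of -0.031 in neuronal (95% counting interval -0.039 to -0.023) and -0.027 in non-neuronal nuclei (-0.034 to -0.020). In both populations the young library thus had the highest level over input and the aged vehicle library the lowest, and the 95% counting interval of the difference between the 2 aged libraries included 0. These comparisons share libraries.

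**Figure D4:**
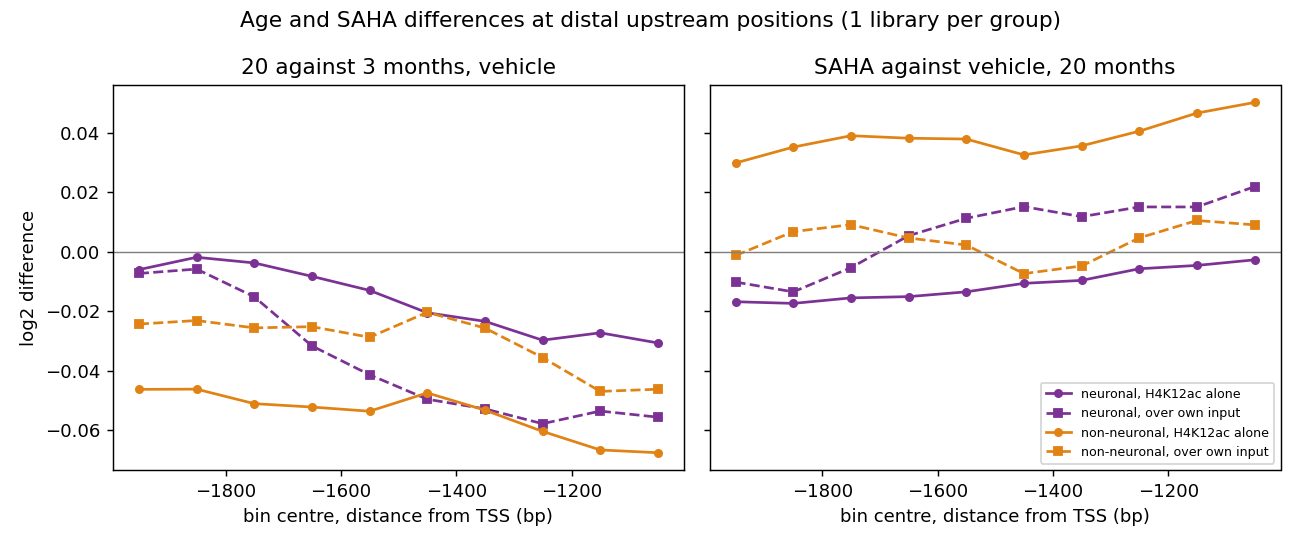
Log2 difference (vertical axis) of 20 against 3 months with vehicle (left) and of SAHA against vehicle at 20 months (right), in bins of 100 positions placed by the distance of their centre from the TSS in bp (horizontal axis). Circles with solid lines are H4K12ac alone and squares with dashed lines H4K12ac over own input, for neuronal (purple) and non-neuronal nuclei (orange), 1 library per group; all values lie between -0.068 and 0.050, and the age differences are below 0 in every bin.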

How the data were processed

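The deposited files hold a signal that the authors had normalized, by the column names: 1 value for each position from -2000 to 2001 around the TSS, without a position 0. The submitters' processing notes name CASAVA 1.8.2, Bowtie2 and build mm10. The sources used here do not say how the signal was scaled, which TSS entered or how duplicates were handled.

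Groups came from the source names, and titles tied each input to its ChIP library. Levels are log2 ratios of window means. The gradient is the log2 ratio of the innermost to the outermost 100 positions, H4K12ac minus input. Bins of 100 positions, their extremes and the start of the sustained rise were named by rule. The positions, comparisons and alternatives were chosen with earlier results of these data known.

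Neighbouring values differed by whole multiples of a fixed step (within 0.1 of it) throughout. That step was treated as 1 read spread over 300 bp, the lag of most negative autocorrelation. With over-dispersion of 1.59 to 1.72 this gave the counting errors, a lower bound where TSS share reads. In 180 simulated pairs, 171 levels and 175 gradients fell inside their 95% intervals. The simulated reads were drawn from this same kind of counting model. The simulation thus checks the calculation and not whether the model holds for these libraries. Alternatives were H4K12ac alone, input subtracted, a common input, the outer 500 positions, ends of 200 positions, a least squares slope and leaving out each pair. Cell type markers were listed but not used, as the profiles hold no genes. Software was Python 3.11.15, NumPy 2.4.6, statsmodels 0.14.6 and Matplotlib 3.10.9.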

Additional observations from a re-analysis of the deposited data

Results flagged for a closer look

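For H4K12ac alone, the SAHA difference in the mean over the distal positions had opposite signs in the 2 populations, with a log2 of -0.011 in neuronal and 0.039 in non-neuronal nuclei, -0.050 apart. This difference between populations was not tested, with 1 library per group. The inputs differed in the same directions, by -1.23% and 2.47%, and their part in the result was not tested. No group held enough libraries to look for one that stands apart from its group.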

How the results depend on the processing

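There were 56 alternative values other than those leaving out a pair. Of these, 38 stayed on the same side of an unadjusted p of 0.05 or within the counting interval. Another 13 moved beyond that interval, 3 kept their sign and fell below an unadjusted p of 0.05, and 2 reversed, counted as such whatever their p. With 3 conditions p cannot go below 0.25, so neuronal against non-neuronal values could only stay or reverse. Subtraction of input was added for the gradients after the data were seen, and it assumes that H4K12ac and input were scaled alike. It reversed the gradient of neuronal against non-neuronal nuclei, to a log2 of 0.19. H4K12ac alone reversed upstream against downstream gradients, to -0.0080, at an unadjusted exact permutation p of 0.03125. Values of both signs thus fell below the unadjusted threshold in this comparison. The latter comparison was 0.016 with ends of 200 positions, 0.024 as a least squares slope and 0.18 with input subtracted, each at an unadjusted exact permutation p of 0.03125, the least that 6 pairs allow, against 0.09375 as reported. H4K12ac alone gave log2 age differences in level of -0.017 (neuronal) and -0.055 (non-neuronal), SAHA differences of -0.011 and 0.039, and a neuronal age difference in gradient of -0.025. With input subtracted the age differences in level were -0.14 and -0.12, the non-neuronal SAHA difference 0.047, the neuronal differences in gradient -0.10 (age) and 0.11 (SAHA), and the non-neuronal one 0.036 (SAHA). Over the outer 500 positions the neuronal differences were -0.020 (age) and -0.0024 (SAHA). The causes were not tested, beyond each alternative's own construction.

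With 1 pair left out, values ranged from 0.46 to 0.51 for the level, -0.086 to -0.081 against downstream, -1.01 to -0.95 against the TSS, 0.35 to 0.37 for the gradient, 0.117 to 0.126 for inner against outer positions and 0.0087 to 0.016 for upstream against downstream gradients. With 1 condition left out, neuronal against non-neuronal values ranged from -0.196 to -0.192 (level) and -0.071 to -0.057 (gradient). With 5 pairs p cannot go below 0.0625, which says nothing of stability. H4K12ac alone gives no level over input. No paired analysis by replicate number was possible because each group had 1 library, and the pairs used are each library with its input. Counting intervals give only the part of the error set by depth. The 15 pairs of inputs differed at the distal positions by a median log2 of 0.019.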
